A study of Mus musculus with 8 samples.

Results

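The nuclear genes of oxidative phosphorylation were examined in the ventral tegmental area (VTA), the midbrain region that holds dopamine neurons projecting to reward areas. They were taken by symbol as genes starting with Nduf, Uqcr, Cox4, Cox5, Cox6, Cox7, Cox8 or Atp5, together with Sdha, Sdhb, Sdhc and Sdhd. The 9 symbols that contain -ps, os or rt were left out. This rule took 97 of the 54735 genes in the counts: 41 structural genes and 8 assembly factors of complex I, 4 genes of complex II, 8 of complex III, 19 of complex IV and 17 of complex V. The measure was RNA-sequencing of bilateral VTA punches from DBA2/J mice, 1 library per mouse, with 4 unhandled controls (CTR, replicate numbers 1, 2, 3 and 5) and 4 pups exposed to social stress (SS, replicate numbers 2, 3, 4 and 5). SS pups had spent 30 min per day from postnatal day 14 to 21 in the cage of an unfamiliar, gonadectomized adult male, whereas CTR litters stayed undisturbed with the mother. Age is given as day 21 in the labels and as the following day in the study's methods. The labels name no transgene or drug for these mice and do not say which were littermates.

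Oxidative phosphorylation takes place in the inner mitochondrial membrane. Complexes I and II pass electrons from NADH and succinate to ubiquinone, complex III passes them to cytochrome c, and complex IV hands them to oxygen. Complexes I, III and IV pump protons, and the returning protons drive complex V, the ATP synthase. Neurons depend on this pathway for ion pumping and transmitter release. Most subunits are encoded in the nucleus and many are small proteins with short transcripts, and the nuclear respiratory factor NRF1, ETS factors such as GABPA and the factor YY1 are known regulators of these genes.

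Promoter sequences were read for the members from RefSeq windows on GRCm38.p6 that run from 250 bases before to 50 bases after the start of transcription. Of the 97 members 76 had a window, as had 27025 genes in all. Letters of the NRF1 motif with 1 free base, GCGCNTGCG, stood on either strand in 25 of the 76 members (32.9%) and in 7.12% of all genes with a window, or 13.9% of the tested genes with a window. Its strict form GCGCATGCG, which is a subset of the former, stood in 10 members (13.2%), in 1.95% of all genes and in 3.71% of the tested genes. The ETS motif CCGGAAG was found in 18 members (23.7%) against 9.93% of all genes and 17.8% of the tested genes, and the YY1 motif AAGATGGCG in 8 members (10.5%) against 1.64% and 3.1%. By complex, GCGCNTGCG was present in 9 of 33 structural complex I genes, 2 of 7 assembly factors, 2 of 3 complex II genes, 3 of 5 complex III genes, 1 of 13 complex IV genes and 8 of 15 complex V genes. The promoters of the members with the smallest p in complexes I, IV and V are shown, because the values below are given for these genes first. The genes span chr4:123712710-123718202 (Ndufs5), chr5:115345642-115348981 (Cox6a1) and chr2:10056016-10080510 (Atp5c1) in GENCODE M21 on GRCm38, and each window covers sequence upstream of a start and the first transcribed bases. Capitals mark letters that match GCGCNTGCG or CCGGAAG on either strand.
Ndufs5, minus strand, chr4:123718137-123718436: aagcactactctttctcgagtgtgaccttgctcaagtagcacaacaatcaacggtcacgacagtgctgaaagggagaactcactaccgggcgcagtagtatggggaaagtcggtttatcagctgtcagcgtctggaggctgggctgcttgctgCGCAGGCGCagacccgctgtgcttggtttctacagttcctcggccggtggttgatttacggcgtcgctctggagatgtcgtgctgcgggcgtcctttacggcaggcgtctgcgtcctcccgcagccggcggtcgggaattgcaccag
Cox6a1, minus strand, chr5:115348909-115349208: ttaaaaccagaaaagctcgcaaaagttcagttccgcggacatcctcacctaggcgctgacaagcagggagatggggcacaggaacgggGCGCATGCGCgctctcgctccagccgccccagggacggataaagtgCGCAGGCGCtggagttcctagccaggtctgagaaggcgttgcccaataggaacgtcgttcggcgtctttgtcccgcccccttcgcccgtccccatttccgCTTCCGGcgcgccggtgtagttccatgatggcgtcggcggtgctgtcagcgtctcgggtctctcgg
Atp5c1, minus strand, chr2:10080383-10080682: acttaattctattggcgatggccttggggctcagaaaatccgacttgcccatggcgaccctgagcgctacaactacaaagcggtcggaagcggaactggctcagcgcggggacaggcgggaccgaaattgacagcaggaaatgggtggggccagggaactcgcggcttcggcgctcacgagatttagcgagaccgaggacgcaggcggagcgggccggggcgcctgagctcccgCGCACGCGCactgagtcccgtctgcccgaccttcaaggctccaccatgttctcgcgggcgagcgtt
The Ndufs5 window held 1 match to GCGCNTGCG, the Cox6a1 window held an overlapping pair that includes the strict form, a separate match and 1 ETS match, and this Atp5c1 window held 1 match. A further Atp5c1 window in RefSeq held none.

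The 8 libraries held 20036086 to 47319997 counts, and the members took 0.968% to 1.46% of them. A count of 0 allows a share of up to 1.5e-05% in the smallest library and 6.34e-06% in the largest, from 3 counts of the total and for counting error only. CTR-1 and CTR-2 had the fewest genes with any count (17446 and 17738, against 19328 to 23172 in the other 6). Although all mice are labelled male, Xist had 14997 counts in CTR-5 and 6551 in SS-5 and at most 3 in the other 6 libraries, and the Y-linked transcripts Ddx3y, Eif2s3y, Kdm5d and Uty together had 3 and 0 counts there, so those libraries stand against their labels and results are also given without them. Markers of dopamine neurons were present in all CTR libraries (summed CPM 955 to 2004 over 11 genes) and low in SS (264 to 387), and 6 of the 11 were called by edgeR. Summed markers of neurons in general were 6275 to 6577 CPM in CTR and 5153 to 5540 in SS, with all 9 genes below 0 in log2 fold change (median -0.288). All 7 oligodendrocyte and all 6 microglia markers were also below 0 (medians -0.059 and -0.103). The same held for 4 of 6 astrocyte, 2 of 5 endothelial and 0 of 3 GABA neuron markers. Astrocyte markers spanned 1074 to 1154 CPM in CTR and 1038 to 1139 in SS, and oligodendrocyte markers 22913 to 32336 and 26065 to 28897. Microglia markers spanned 165 to 236 and 160 to 178, and endothelial markers 159 to 196 and 156 to 208, in CTR and SS. In the same order GABA neuron markers spanned 413 to 459 and 356 to 550, and glutamate neuron markers 348 to 772 and 448 to 503. The 2 glutamate neuron markers went opposite ways, at log2 fold changes of -2.158 (unadjusted edgeR p under 0.05) and 0.199. The part of these marker differences in the values below was not tested. In punches of whole tissue, fewer cells of a type and less RNA per cell cannot be told apart. By stereology on perfused brains, the study found no significant group effect on the number of tyrosine hydroxylase neurons in the VTA.

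Of the 97 members 90 passed edgeR's filter on low counts (38 structural and 8 assembly genes of complex I, 4 of complex II, 8 of complex III, 15 of complex IV and 17 of complex V). The 7 others were Cox7b2, Cox8b and Cox8c, which are isoforms of complex IV subunits, and Cox6c2, Ndufa11b, Ndufb4c and Ndufs6b, which are annotated as processed pseudogenes. Cox8c and Ndufb4c had no count in any library. Levels are given as counts per M (CPM) after TMM normalization for library size, and between genes as CPM per kb of the principal transcript. The median over the 90 tested members was 101.8 CPM per kb. Complex V had the highest median level (154 CPM per kb), followed by complex IV (143), complex III (129), structural complex I (92.2) and complex II (85.4), and the assembly factors were lowest (13.7).

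Summed over all members, the CTR level was 15087 (replicate 1), 11789 (replicate 2), 11378 (replicate 3) and 9753 CPM (replicate 5). Under SS it was 10479 (replicate 2), 10021 (replicate 3), 9960 (replicate 4) and 10358 CPM (replicate 5). The means were 12000 ± 2240 (SD, n = 4) in CTR and 10200 ± 254 in SS, a ratio of 0.85. The groups overlapped, since CTR-5 lay below every SS library while the other CTR libraries lay above all of them. The spread of CTR was wider than the difference between the means, and the 4 SS libraries lay close together. In the sums of both complex I classes and of complexes III, IV and V, CTR-1 was highest and CTR-5 lowest of all 8. In complex II, CTR-1 was highest and CTR-2 lowest. The ratio of the SS to the CTR mean was 0.832 for structural complex I, 0.925 for its assembly factors, 0.972 for complex II, 0.83 for complex III, 0.798 for complex IV and 0.87 for complex V. Scaled to the total count in place of TMM, it was 0.886 over all members, and that of complex II changed side to 1.01.

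**Figure D1:**
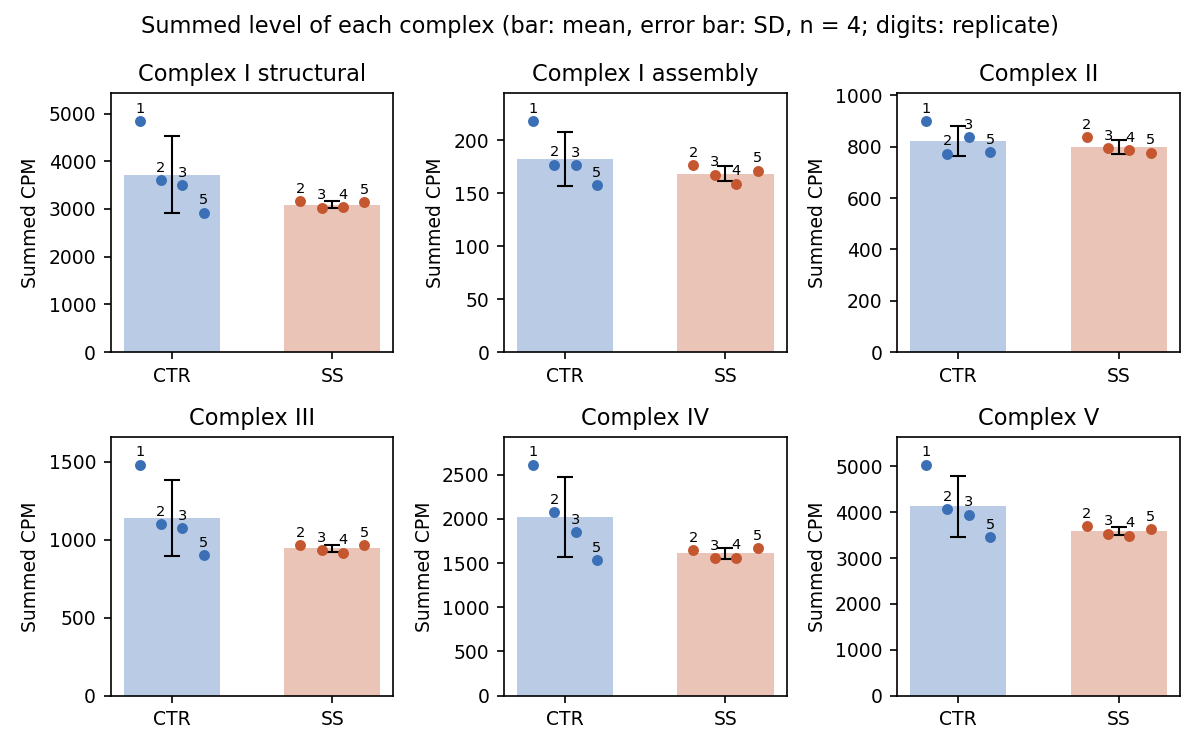
Summed CPM of each complex (y axis, from 0) in CTR and SS, with 1 point per mouse and its replicate number, bars at the mean and error bars of 1 SD (n = 4). CTR-1 is the highest point in each panel, and outside complex II CTR-5 lies below all 4 SS points.

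No member was called between SS and CTR by edgeR's quasi-likelihood test with Benjamini-Hochberg adjustment over 16538 genes, of which 0.0847% were called, and none by DESeq2, which called 0.419% of the genes it gave an adjusted p and had 24 members at an unadjusted p under 0.05 (5.95% of all genes). At that unadjusted threshold in edgeR, 17 of 90 members were lower in SS (3.7% of all genes tested) and 0 were higher (2.85% of all genes). The log2 fold change of SS relative to CTR was below 0 for 80 members and above 0 for 10, or 11.1% of members against 50.6% of all genes. Its median was -0.265 over the members (quartiles -0.359 and -0.169) and 0.004 over all genes. The SD of the library medians within groups was 0.207. Values of SS and CTR did not overlap in 1 member, lower in SS (2.21% of all genes), and in none higher (2.47% of all genes).

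In the structural genes of complex I 37 of 38 lay below 0 in log2 fold change (median -0.295), and 7 were lower at an unadjusted p under 0.05. Over all genes tested 3.7% were lower at that p. In complex III all 8 lay below 0 with a median of -0.256, and 1 reached that p. Complex IV had 11 of 15 below 0, a median of -0.254 and 6 at that p, and complex V had 16 of 17 below 0, a median of -0.293 and 3. Complex II (3 of 4 below 0, median -0.157) and the assembly factors (5 of 8 below 0, median -0.092) had none at that p. None of the differences between complexes was tested.

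**Figure D2:**
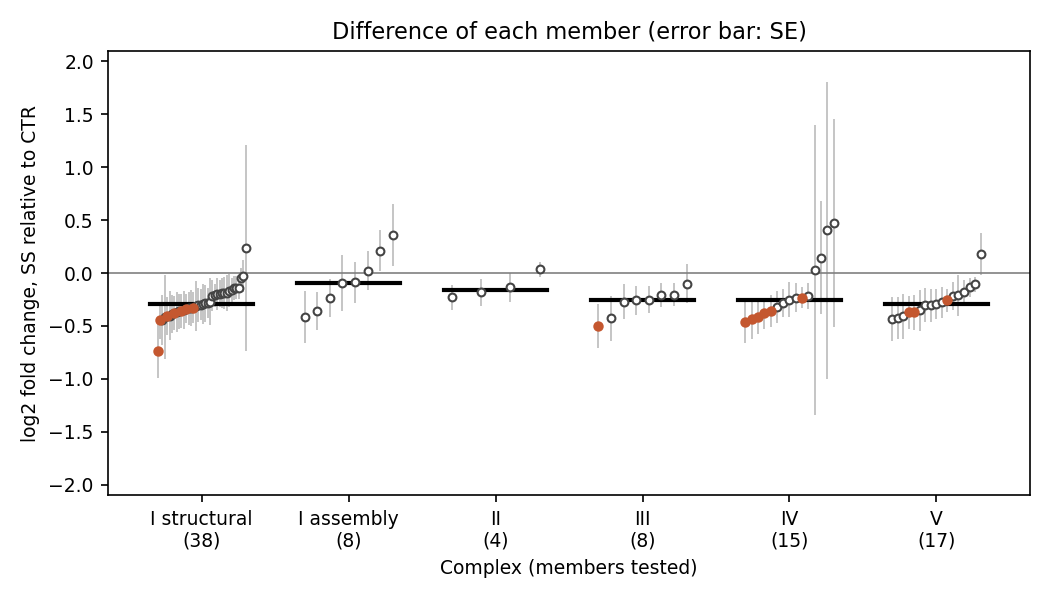
Log2 fold change of SS relative to CTR (y axis) for the 90 tested members, grouped by complex with the number tested, 1 point per gene with its SE, filled at an unadjusted p under 0.05, and black lines at the medians. Most points lie below 0 in structural complex I and complexes III, IV and V, and no gene passed the adjusted threshold.

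Ndufs5, a small accessory subunit of complex I, had the smallest p of all members. Its level was 49.0, 35.5, 25.9 and 17.9 CPM in CTR and 17.6, 19.5, 19.2 and 20.4 in SS, here and below in the order of the replicate numbers. CTR-1 to CTR-3 were above all SS libraries, whereas CTR-5 lay within their range. The log2 fold change was -0.74 ± 0.255 (SE) with an edgeR adjusted p of 0.741, and 46.9% of its transcript is shared with an annotated near-identical copy. For Ndufb8, an accessory subunit of the membrane arm, CTR had 214.8, 139.3, 136.7 and 106.6 CPM, and the SS libraries had 102.6 to 120.3. Its groups overlapped at CTR-5 only, and the log2 fold change was -0.448 ± 0.177 (SE). Ndufa4, named for complex I but now assigned to complex IV, was the most abundant of this class at 300.4 CPM per kb. It had 268.1, 207.6, 176.3 and 166.1 CPM in CTR and 175.6, 162.6, 151.5 and 158.1 in SS, which gave a log2 fold change of -0.336 ± 0.139 (SE). Its paralog Ndufa4l2 was at 3.45 CPM per kb, with a log2 fold change of -0.417 ± 0.399 (SE).

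Core subunits of complex I encoded in the nucleus carry its flavin and iron-sulfur centres. Ndufs1, the largest of them, had 139.2 to 159.1 CPM in CTR and 140.1 to 152.9 in SS and a log2 fold change of -0.043 ± 0.087 (SE). In this gene CTR-1 was the lowest library of its group. Ndufs3, Ndufs7, Ndufs8, Ndufv1 and Ndufv2 had log2 fold changes from -0.362 (Ndufs8) to -0.141 (Ndufv1), none at an unadjusted p under 0.05. Ndufs3 is uncertain, since 83.8% of its transcript is found in annotated copies. Ndufb4 was the only structural gene above 0, at 0, 50, 76 and 73 counts in CTR and 121, 109, 71 and 16 in SS. It had no count in CTR-1, its SE of 0.972 exceeded its log2 fold change of 0.236, and 40.2% of its transcript has a copy.

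The assembly factors act on complex I while it is built and are not part of the finished enzyme. Ndufaf1 had 19.2, 14.6, 19.2 and 15.4 CPM in CTR and 12.1, 13.9, 15.8 and 11.4 in SS, which gave a log2 fold change of -0.359 ± 0.183 (SE). Ndufaf2 had a log2 fold change of -0.418 ± 0.244 (SE), and Ndufaf5, the most abundant per length at 36.8 CPM per kb, one of -0.233 ± 0.18 (SE). On the other side, Ndufaf6 was at 6.61, 7.88, 4.19 and 5.91 CPM in CTR and 5.64, 10.2, 7.53 and 8.20 in SS, a log2 fold change of 0.359 ± 0.29 (SE). Ndufaf7, a methyltransferase, had a log2 fold change of 0.212 ± 0.195 (SE). The groups overlapped in all of these.

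Complex II, succinate dehydrogenase, is shared with the citric acid cycle and has no subunit encoded in mitochondrial DNA. Its flavoprotein Sdha had 508.9, 489.9, 523.3 and 514.9 CPM in CTR and 553.5, 518.7, 517.3 and 499.1 in SS, which gave a log2 fold change of 0.036 ± 0.071 (SE). The groups overlapped, and CTR-1 lay inside the range of the other CTR libraries. Sdhb, the iron-sulfur subunit, had a log2 fold change of -0.134 ± 0.135 (SE), and the membrane anchors Sdhc and Sdhd had -0.23 ± 0.116 and -0.18 ± 0.127. In Sdhb, Sdhc and Sdhd CTR-1 was again the highest library, for example at 122.2 CPM in Sdhc against 85.6 to 102.2 in the rest of CTR and 83.6 to 89.4 in SS.

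In complex III, Uqcrq, a small subunit next to cytochrome b, had 142.1, 92.4, 83.2 and 59.5 CPM in CTR and 62.8, 69.5, 65.4 and 69.1 in SS. CTR-5 was the lowest of all 8 libraries and CTR-1 to CTR-3 were the highest. The log2 fold change was -0.498 ± 0.209 (SE) with an edgeR adjusted p of 0.755. Uqcr10 was at 171.7, 96.96, 90.67 and 75.97 CPM in CTR against 72.4 to 85.3 in SS, with CTR-5 inside the SS range and a log2 fold change of -0.428 ± 0.211 (SE). Uqcrh, the hinge protein that contacts cytochrome c1, was the most abundant per length at 339.4 CPM per kb and had a log2 fold change of -0.258 ± 0.137 (SE). The Rieske protein Uqcrfs1 and the core proteins Uqcrc1 and Uqcrc2 had log2 fold changes of -0.209, -0.253 and -0.203.

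Complex IV, cytochrome c oxidase, is known for subunits with tissue isoforms. Cox6a1, the isoform of most tissues, had 297.2, 262.0, 215.5 and 172.9 CPM in CTR and 180.7, 174.8, 178.5 and 193.2 in SS. CTR-5 lay below all SS libraries and the other CTR libraries above them. The log2 fold change was -0.382 ± 0.144 (SE) with an edgeR adjusted p of 0.755. Cox6b1, which faces the intermembrane space, was at 348.0, 241.9, 250.3 and 170.5 CPM in CTR and 182.6 to 199.6 in SS, which gave a log2 fold change of -0.412 ± 0.168 (SE). Cox4i1, the largest nuclear subunit, was the most abundant gene of the complex at 464.4 CPM per kb and had a log2 fold change of -0.28 ± 0.131 (SE). Log2 fold changes of the other general isoforms were -0.324 (Cox7a2), -0.356 (Cox7b) and -0.433 (Cox8a).

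The muscle, lung and testis isoforms were at a small fraction of these levels. Cox4i2, the lung isoform that responds to low oxygen, had 0, 0, 69 and 24 counts in CTR and 26, 73, 24 and 16 in SS. Cox6a2, the heart and muscle isoform, had 0, 109, 41 and 25 counts in CTR and 73, 113, 78 and 63 in SS, and Cox7a1, also of heart and muscle, had 4, 0, 10 and 39 and 16, 19, 0 and 37. In each, at least 1 of CTR-1 and CTR-2 had no count, and these libraries also had the fewest genes with any count. Their log2 fold changes were 0.028 ± 1.368 (SE), 0.47 ± 0.982 and 0.403 ± 1.406, each smaller than its SE, so no difference was detectable. Cox6b2, the testis isoform, was at 3.94 CPM per kb, with a log2 fold change of 0.145 ± 0.532 (SE). These 4 genes are the members of complex IV above 0.

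In complex V, Atp5c1, the gamma subunit of the rotating stalk, had 271.7, 246.1, 221.4 and 200.8 CPM in CTR and 213.5, 198.2, 186.5 and 187.0 in SS. The groups overlapped between CTR-5 and SS-2, and the log2 fold change was -0.259 ± 0.106 (SE) with an edgeR adjusted p of 0.755. Atp5l, a small subunit of the membrane part, had 34.9, 32.2, 27.5 and 24.5 CPM in CTR and 21.2, 25.2, 20.1 and 25.5 in SS, a log2 fold change of -0.372 ± 0.159 (SE). Copies cover 72.2% of its transcript. Atp5b, the catalytic beta subunit, had the highest level per length of all members (558.8 CPM per kb) and a log2 fold change of -0.133 ± 0.089 (SE). The only complex V gene above 0 was Atp5s, known as coupling factor B, at 11.4 to 16.4 CPM in CTR and 13.5 to 20.9 in SS, which gave a log2 fold change of 0.181 ± 0.2 (SE).

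Atp5g1, Atp5g2 and Atp5g3 encode the same mature protein of the rotor ring with different import sequences. Per length Atp5g3 was the most abundant (407.8 CPM per kb), followed by Atp5g1 (26.2) and Atp5g2 (13.2). The principal transcript of Atp5g1 is 4715 bases long, against 714 for Atp5g3 and 731 for Atp5g2. Without division by length the mean levels were 291.1 CPM for Atp5g3, 123.7 for Atp5g1 and 9.66 for Atp5g2. Atp5g2 was the member without overlap, with 14.5, 10.6, 9.37 and 9.63 CPM in CTR and 8.63, 8.09, 8.74 and 7.70 in SS. The nearest values of the groups, CTR-3 and SS-4, were 9.37 and 8.74 CPM, and 88.2% of the transcript is found in annotated copies. Log2 fold changes were -0.371 ± 0.164 (SE) for Atp5g1, -0.409 ± 0.214 for Atp5g2 and -0.18 ± 0.115 for Atp5g3, with edgeR adjusted p values of 0.755, 0.755 and 0.792.

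The order of the libraries recurred from gene to gene. CTR-1 was the highest of the 8 libraries in 75 of 90 members (83.3%), compared with 25.7% of all genes and 76.8% of the 95 tested genes of the cytosolic ribosome. CTR-5 was the lowest CTR library in 69 members (76.7%, against 19.5% of all genes and 72.6% of the cytosolic ribosome). It lay below the SS mean in 69 members (76.7%, against 51.6% of all genes and 74.7% of the cytosolic ribosome). Centred on each gene's mean over the 8 libraries, the median of the members was 0.512, 0.107, 0.063 and -0.192 in the CTR libraries on the log2 scale. It was -0.097, -0.144, -0.135 and -0.08 in the SS libraries. The SD over the 4 CTR libraries exceeded that over the 4 SS libraries in 84 members (93.3%, against 83.0% of all genes and 93.7% of the cytosolic ribosome). Median SDs on the log2 scale were 0.333 in CTR and 0.0988 in SS for the members. For the cytosolic ribosome they were 0.308 and 0.0895.

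**Figure D3:**
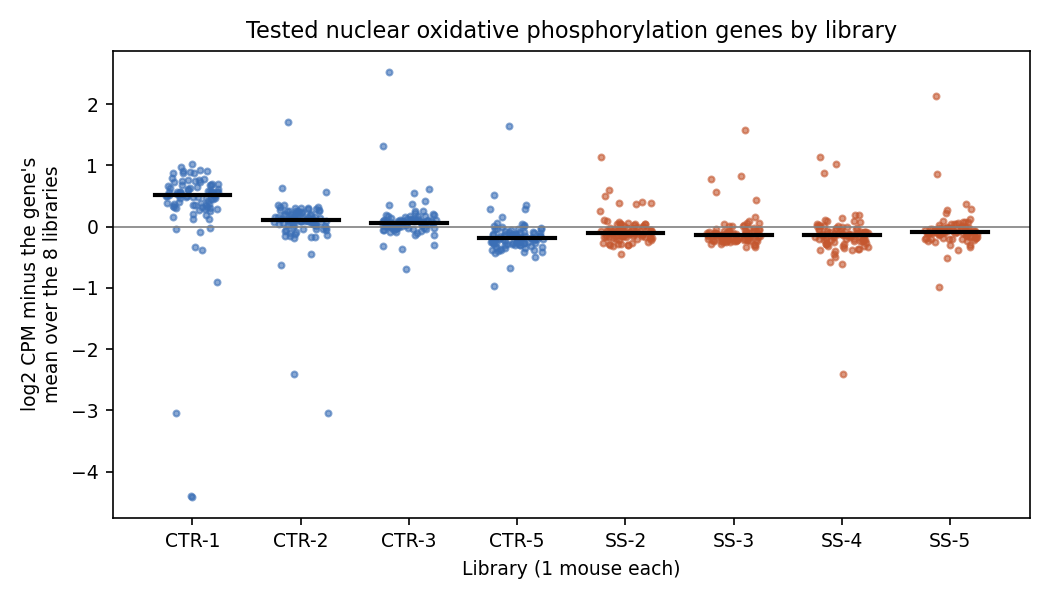
Log2 CPM of each of the 90 tested members minus its own mean over the 8 libraries (y axis), by library (x axis, 1 mouse each), with black lines at the medians. CTR-1 lies highest with a median of 0.512, CTR-5 lowest with -0.192, and the 4 SS libraries between -0.144 and -0.08.

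The member median moved with the CTR libraries that entered. Without CTR-1 it was -0.12 with 1 member at an unadjusted p under 0.05 (7.78% of all genes), and without CTR-5 it was -0.372 with 56 members at that p, a threshold that 13.4% of all genes then passed. In the 6 libraries with Y-linked transcripts, which leaves out CTR-5 and SS-5, it was -0.379 with 50 members at that p (10.6% of all genes). Leaving out CTR-1 and CTR-5, an alternative chosen after seeing the data, gave -0.212 with 38 members at that p (15.3% of all genes). Without 1 SS library the median was -0.269 to -0.25, and the 17 members at that p became 9 (SS-2), 3 (SS-3), 2 (SS-4) or 7 (SS-5), where 3.53% to 4.65% of all genes passed. No member was called at an adjusted p under 0.05 by edgeR in any of these fits.

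**Figure D4:**
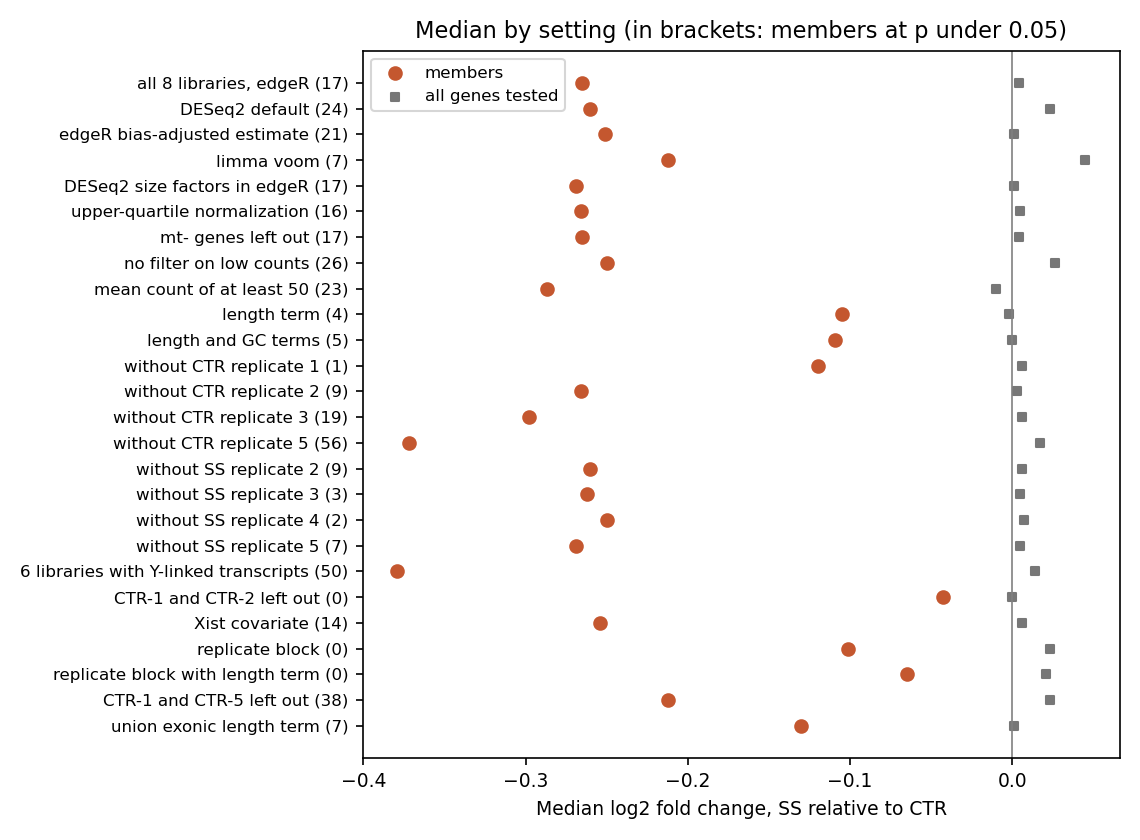
Median log2 fold change of SS relative to CTR (x axis) over the tested members and over all genes tested in each setting (y axis), with the number of members at an unadjusted p under 0.05 in brackets. The member median lies below 0 in every setting shown, from -0.379 in the 6 libraries with Y-linked transcripts to -0.043 without CTR-1 and CTR-2, while the median of all genes stays between -0.01 and 0.045.

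Transcript length was related to the difference across genes. The members were short, with a median principal transcript of 863 bases against 2854 for all genes tested, and 58.9% of them were shorter than 1000 bases against 9.27% of all. Over all 16488 tested genes with a length, the log2 fold change correlated with log2 length at Pearson's r = 0.11 and Spearman's rho = 0.228. Among other genes at 20 CPM or more r was 0.332 and rho 0.429 over 8006 genes, which share libraries and are not replicates. Over the 90 tested members r was 0.234 and rho 0.36, and over the 79 members at 20 CPM or more 0.502 and 0.484. Log2 CPM minus each gene's mean over the 8 libraries was also set against log2 length in each library. Its slope differed between libraries of the same group, from -0.101 in CTR-1 to 0.0463 in CTR-2 and from -0.0281 in SS-5 to 0.047 in SS-4. CTR-1 was the library with the most negative slope. CTR-1 and CTR-5 were also the extremes of the slope of these centred values on GC content (0.2 and -0.148 in log2 per 10 percentage points).

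In each range of length that held members, their median lay below that of other genes, a difference that was not tested. Between 500 and 1000 bases the median log2 fold change was -0.303 for 46 members and -0.147 for 1149 other genes, or -0.217 for 276 other genes at 20 CPM or more. Between 1000 and 1500 bases it was -0.246 for 16 members, -0.106 for 1612 other genes and -0.154 for 533 of them at 20 CPM or more. Between 1500 and 2000 bases the values were -0.201 for 12 members, -0.072 for 1874 other genes and -0.106 for 760 at that level. Longer members were few, with 4 between 2000 and 3000 bases and 5 between 3000 and 5000, at medians of -0.074 and -0.185.

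With a length term in each library's offsets 18 of 90 members lay above 0 (20%, against 49.7% of all genes and 28.4% of the cytosolic ribosome). The member median was -0.105. By complex it was -0.113 for structural complex I, 0 for its assembly factors, -0.026 for complex II, -0.122 for complex III, -0.067 for complex IV and -0.128 for complex V. The 4 members still at an unadjusted p under 0.05 were Ndufs5, Ndufb8, Uqcrq and Atp5g1, all of them among the 17 of the fit without the term, and none passed the adjusted threshold. In that fit 6.63% of all genes had an unadjusted p under 0.05. Other genes at 20 CPM or more had medians from -0.056 (under 500 bases) to -0.012 (5000 bases or more) with the term. Ndufs5 was then at -0.512 and Ndufb8 at -0.234. Atp5g1, with a principal transcript of 4715 bases, moved away from 0, from -0.371 to -0.464. Sdhb and Atp5g3 moved from -0.134 and -0.18 to 0.005 each.

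**Figure D5:**
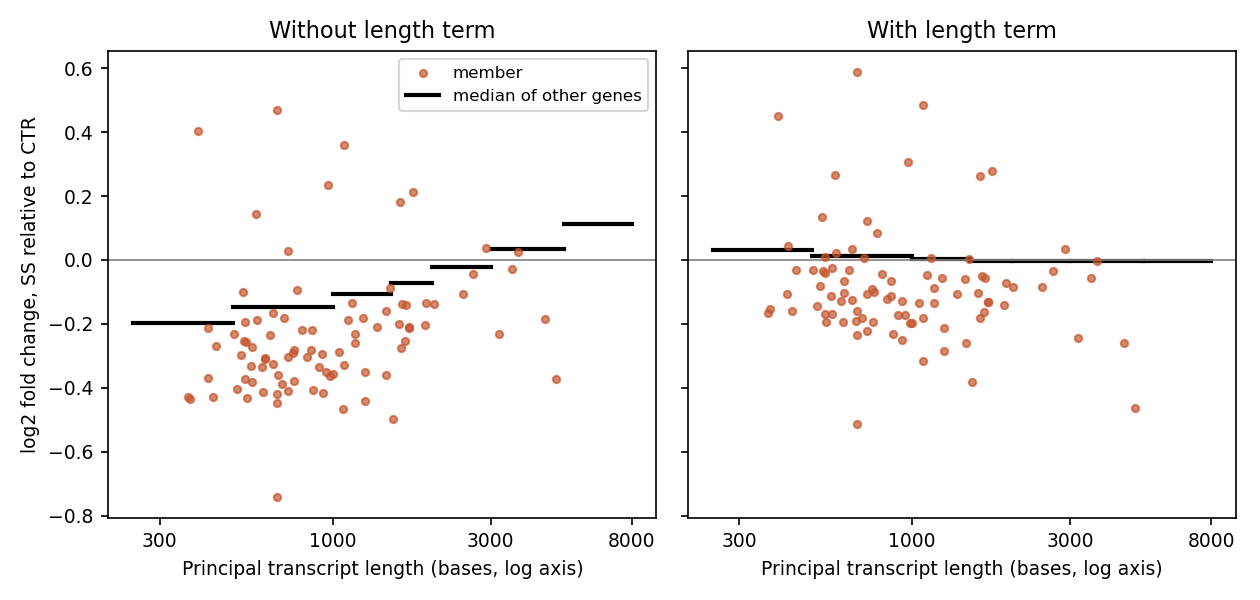
Log2 fold change of SS relative to CTR (y axis) against principal transcript length in bases (x axis, log scale) for the tested members, without and with a length term in the fit, with black lines at the median of other genes in each range of length (the last range has no upper end). The members' median is -0.265 without and -0.105 with the term, and the medians of other genes climb with length only in the left panel.

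Genes around the pathway were counted in the same fit. The 13 mRNAs encoded in mitochondrial DNA were listed at 0 in all 8 libraries, so the mitochondrial subunits of complexes I, III, IV and V could not be compared. The electron carriers Cyc1 (cytochrome c1, a complex III subunit outside the symbol rule) and Cycs (cytochrome c) had log2 fold changes of -0.149 ± 0.143 (SE) and -0.13 ± 0.129. Over all genes tested 50.6% lay above 0 in log2 fold change, and 3.7% were lower and 2.85% higher at an unadjusted p under 0.05. Of 35 assembly factors outside the rule, 25 lay below 0 with a median of -0.162, and 5 were lower and 0 higher at that p. Among them Cox20, which helps to insert a mitochondrial subunit of complex IV, had 20.25, 13.17, 9.503 and 12.02 CPM in CTR and 6.93 to 9.83 in SS, a log2 fold change of -0.704 ± 0.251 (SE) at an edgeR adjusted p of 0.746.

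Of 12 regulators of mitochondrial genes 8 lay above 0 (66.7%, against 50.6% of all genes), with a median of 0.086. At an unadjusted p under 0.05, 1 was lower (3.7% of all genes). That gene was Esrra, a nuclear receptor that acts with PGC-1 coactivators, with 65.8, 47.4, 40.0 and 37.9 CPM in CTR and 27.0 to 43.7 in SS, a log2 fold change of -0.436 ± 0.198 (SE). Ppargc1a (PGC-1 alpha), Nrf1 and Tfam, the activator of mitochondrial DNA transcription, had 0.116 ± 0.157 (SE), -0.164 ± 0.202 and -0.113 ± 0.125. Members with and without GCGCNTGCG in the promoter window had medians of -0.281 (25 genes) and -0.276 (49 genes).

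Other metabolic lists had smaller medians below 0. Of all genes tested 50.6% lay above 0, and 3.7% were lower at an unadjusted p under 0.05. The citric acid cycle list left out the Sdh genes and included Pdha1, Pdhb and Dlat of the pyruvate dehydrogenase complex. Of its 16 genes 14 lay below 0 (median -0.113, 0 at an unadjusted p under 0.05). Sucla2, a succinate-CoA ligase subunit, had a log2 fold change of -0.176 ± 0.09 (SE). Of 16 glycolytic genes 15 lay below 0 (median -0.143, 3 lower at that p), among them Ldhb, a lactate dehydrogenase subunit, at -0.292 ± 0.098 (SE). The mitochondrial ribosome had 64 of 77 below 0 (median -0.153, 5 lower at that p), with Mrpl30 at -0.401 ± 0.132 (SE). The cytosolic ribosome, whose median length of 878 bases is close to that of the members, had 84 of 95 below 0, a median of -0.239 and 18 lower at that p, and Rpl35a had -0.416 ± 0.138 (SE). With the length term its median was -0.073. In that fit 12.5% of glycolytic genes lay above 0, with 18.8% of the citric acid cycle list and 33.8% of the mitochondrial ribosome. No gene of these lists was called by edgeR, and the lists were not tested against each other.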

How the data were processed

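RNA-sequencing counts of 8 libraries (4 CTR, 4 SS) were used. Single-end reads had been trimmed (Cutadapt), mapped to mm10 (STAR) and assigned to Ensembl genes (htseq-count) by the authors, and the deposited values are whole counts without normalization. Tool versions and the strand setting are not given in the sources used here, so reads of genes under exons of others (27 members) or with near-identical copies of 75 bases at 98% identity or more (29 members, blastn 2.17.0) are uncertain.

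Here genes were filtered with filterByExpr of edgeR 4.0.16 in R 4.3.3 (minimum count 10, total 15), which left 16538, normalized by TMM and compared by glmQLFit and glmQLFTest, with no term but the group and a Benjamini-Hochberg threshold of 0.05. Each library came from 1 mouse, and since litters were not given, p-values measure only the spread between these samples. Library totals of 20036086 to 47319997 set the precision, and the biological coefficient of variation was 0.384. The length term is a loess curve (span 0.5) of each library on log2 length of the principal transcript of GENCODE M21, entered as an offset. Length was known for 99.7% of genes tested. Log2 CPM used a prior count of 2. The test was also tested on simulated data.

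Alternatives were DESeq2 1.42.0 with default options, limma 3.58.1 voom, other normalizations, other filters, length and GC terms, libraries left out, an Xist covariate and the replicate number as a block. A term for the union of exons and the fit without CTR-1 and CTR-5 were chosen after seeing the data. The members, the gene lists and the rule were chosen with earlier results of these data known. Genes named were, in each complex, up to 2 members with the smallest p in each direction and the one with the highest CPM per kb, all Sdh genes, core subunits of complex I, paired isoforms, members whose groups do not overlap, and from the outside lists the carriers, Ppargc1a, Nrf1, Tfam and the gene with the smallest p of each list. A result chosen by this rule is not reported here. Uqcrfs1, Uqcrc1 and Uqcrc2 were named after their values were seen.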

Additional observations from a re-analysis of the deposited data

How the results depend on the processing

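No member passed an adjusted p of 0.05 under edgeR, DESeq2 or any other setting run, and the member median was below 0 in each. The 17 members lower in SS at an unadjusted p under 0.05 became 7 with limma voom and 26 without a filter on low counts. They became 4 with the length term, 5 with length and GC terms and 7 with the union of exons. They were 50 in the 6 libraries with Y-linked transcripts, 0 without CTR-1 and CTR-2, and 37 (with 1 higher) without CTR-1 and CTR-5. In either direction 6.55% of all genes passed that p in edgeR with all 8 libraries. In the order of the settings just named, the share of all genes was 7.56%, 7.12%, 6.63%, 7.26%, 6.78%, 10.6%, 6.34% and 15.3%. Leaving out 1 library gave 1 (CTR-1, with 7.78% of all genes at that p) to 56 (CTR-5, with 13.4%). DESeq2 and the other normalizations kept the count within 1.5 times. The median of the assembly factors was -0.325 in the 6 libraries. Without CTR-1 and CTR-2 the medians were -0.043 over all members, -0.038 in structural complex I and -0.049 in complex V.

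The replicate numbers 2, 3 and 5 are shared, and the numbers were not taken as pairs. Deviations of same-numbered libraries correlated at -0.006, -0.008 and 0.06, and those of CTR and SS libraries with different numbers at -0.094 to 0.045. These correlations cannot show whether the numbers mark littermates. In a fit with the replicate number as a block, CTR-1 and SS-4 do not enter the group difference, since their numbers occur in a single group. With this block 0 members reached an unadjusted p under 0.05 (4.6% of all genes), and the member median was -0.101. With the replicate block and length term it was also 0 members (5.36% of all genes), with a complex V median of -0.06.

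Single genes changed sign, none of them past the threshold on either side. Sdhb was 0.005 with the length term, 0.001 with length and GC, 0.044 with the block and 0.07 with block and length, and Atp5g3 was 0.005 with length and 0.006 with length and GC. Leaving out 1 library at a time gave -0.17 to 0.69 for Ndufb4, -0.211 to 0.015 for Sdhb, -0.383 to 2.082 for Cox4i2, -0.065 to 0.422 for Cox6b2 and -0.641 to 1.355 for Cox7a1. Without CTR-1 and CTR-2, Ndufb4 was -0.271, Ndufaf2 0.008, Ndufaf5 0.03, Cox7a1 -0.383, Ndufs3 0.037, Cox4i2 -0.953 and Cox6b2 -0.31. Without CTR-1 and CTR-5, Ndufb4 was -0.321, Cox6a2 -0.385, Cox4i2 -0.694 and Cox6b2 -0.023. Ndufb4 was -0.519 with the block and -0.478 with block and length, where Ndufs3 and Ndufs7 were 0.002 and 0.023. The cause was not tested.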
